A study of Drosophila melanogaster with 24 samples.

Results

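Tubulins are the building blocks of microtubules. An alpha and a beta tubulin pair to a dimer, the dimers stack into hollow filaments, and the filaments form the mitotic spindle, the tracks of axonal and vesicle transport and the axoneme of cilia and sperm tails. Drosophila melanogaster has several genes for each partner, called isotypes, which make closely related proteins and differ in where and when they are used. The 8 listed genes were chosen by name, with no measured value: the alpha tubulins alphaTub67C, alphaTub84B, alphaTub84D and alphaTub85E and the beta tubulins betaTub56D, betaTub60D, betaTub85D and betaTub97EF. Of these, 7 genes had a probe under their symbol on the arrays, with 10 probes in all out of 23808. betaTub60D had 2 probes and betaTub97EF had 3. No probe carried the symbol alphaTub84B, a broadly used alpha tubulin, and it was not analysed here. All 10 probes had a value on every one of the 23 arrays used, so none was lost to a filter.

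The study followed RNA of whole animals through the life cycle of the fly on two-colour glass-slide arrays. The stages were embryos at 4-8 h, 8-12 h and 12-16 h (egg lays of 4 h left to develop), pooled larvae, pupal stages 1, 2 and 3 (picked by hand), and young adults, collected as males and females. No label names the strain or genotype. Every array carried RNA of 0-4 h embryos in the other dye, so a value compares the stage with these embryos: it is a log2 ratio, the mean of 2 spots, taken relative to the median probe of its array. "Fell" and "rose" below mean below and above the 0-4 h embryos on that scale with an adjusted p under 0.05. The mean over arrays corrected for dye is called the fitted value, and is given with its standard error (SE, n = 3 arrays, 2 at pupal stage 1).

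The labels speak of independent experiments without saying whether the RNA came from separate collections. A p-value reflects only how far arrays scattered around their stage values, pooled over all stages, possibly for technical reasons. The SE of a probe is therefore the same at every stage with 3 arrays, however close the arrays of that stage were. With each stage fitted on its own arrays, the 33 tubulin calls against the reference became 10. The reference's own variation is not in the p-value. In whole animals, fewer cells of a type and less RNA per cell cannot be told apart. The ratio says nothing about how one isotype's level compares with another's. Without centring, all probes together were shifted: their median was 0.65 for 4-8 h, -0.97 for 8-12 h and -1.60 for 12-16 h embryos, -1.08 for larvae, -1.42, -1.76 and -0.37 for pupal stages 1 to 3, and -0.49 for adults. Arrays a and b of 4-8 h, array a of 8-12 h and array a of larvae had narrower values than the others (median absolute deviation 0.618 to 0.737, against 0.780 to 1.63 on the other 19 arrays). Arrays of 1 stage correlated at a median of 0.482 over 22 pairs (lowest 0.0828), across probes that are not independent replicates. Arrays a and b stood apart at pupal stage 2 (r = 0.904) and pupal stage 3 (r = 0.892), where each pair was closer than any other and may be repeats of 1 sample. With each such pair averaged to 1 value, betaTub60D probe 2 at pupal stage 2 no longer passed (-0.87, adjusted p 0.122), and the other 6 tubulin calls at these 2 stages held.

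**Figure D1:**
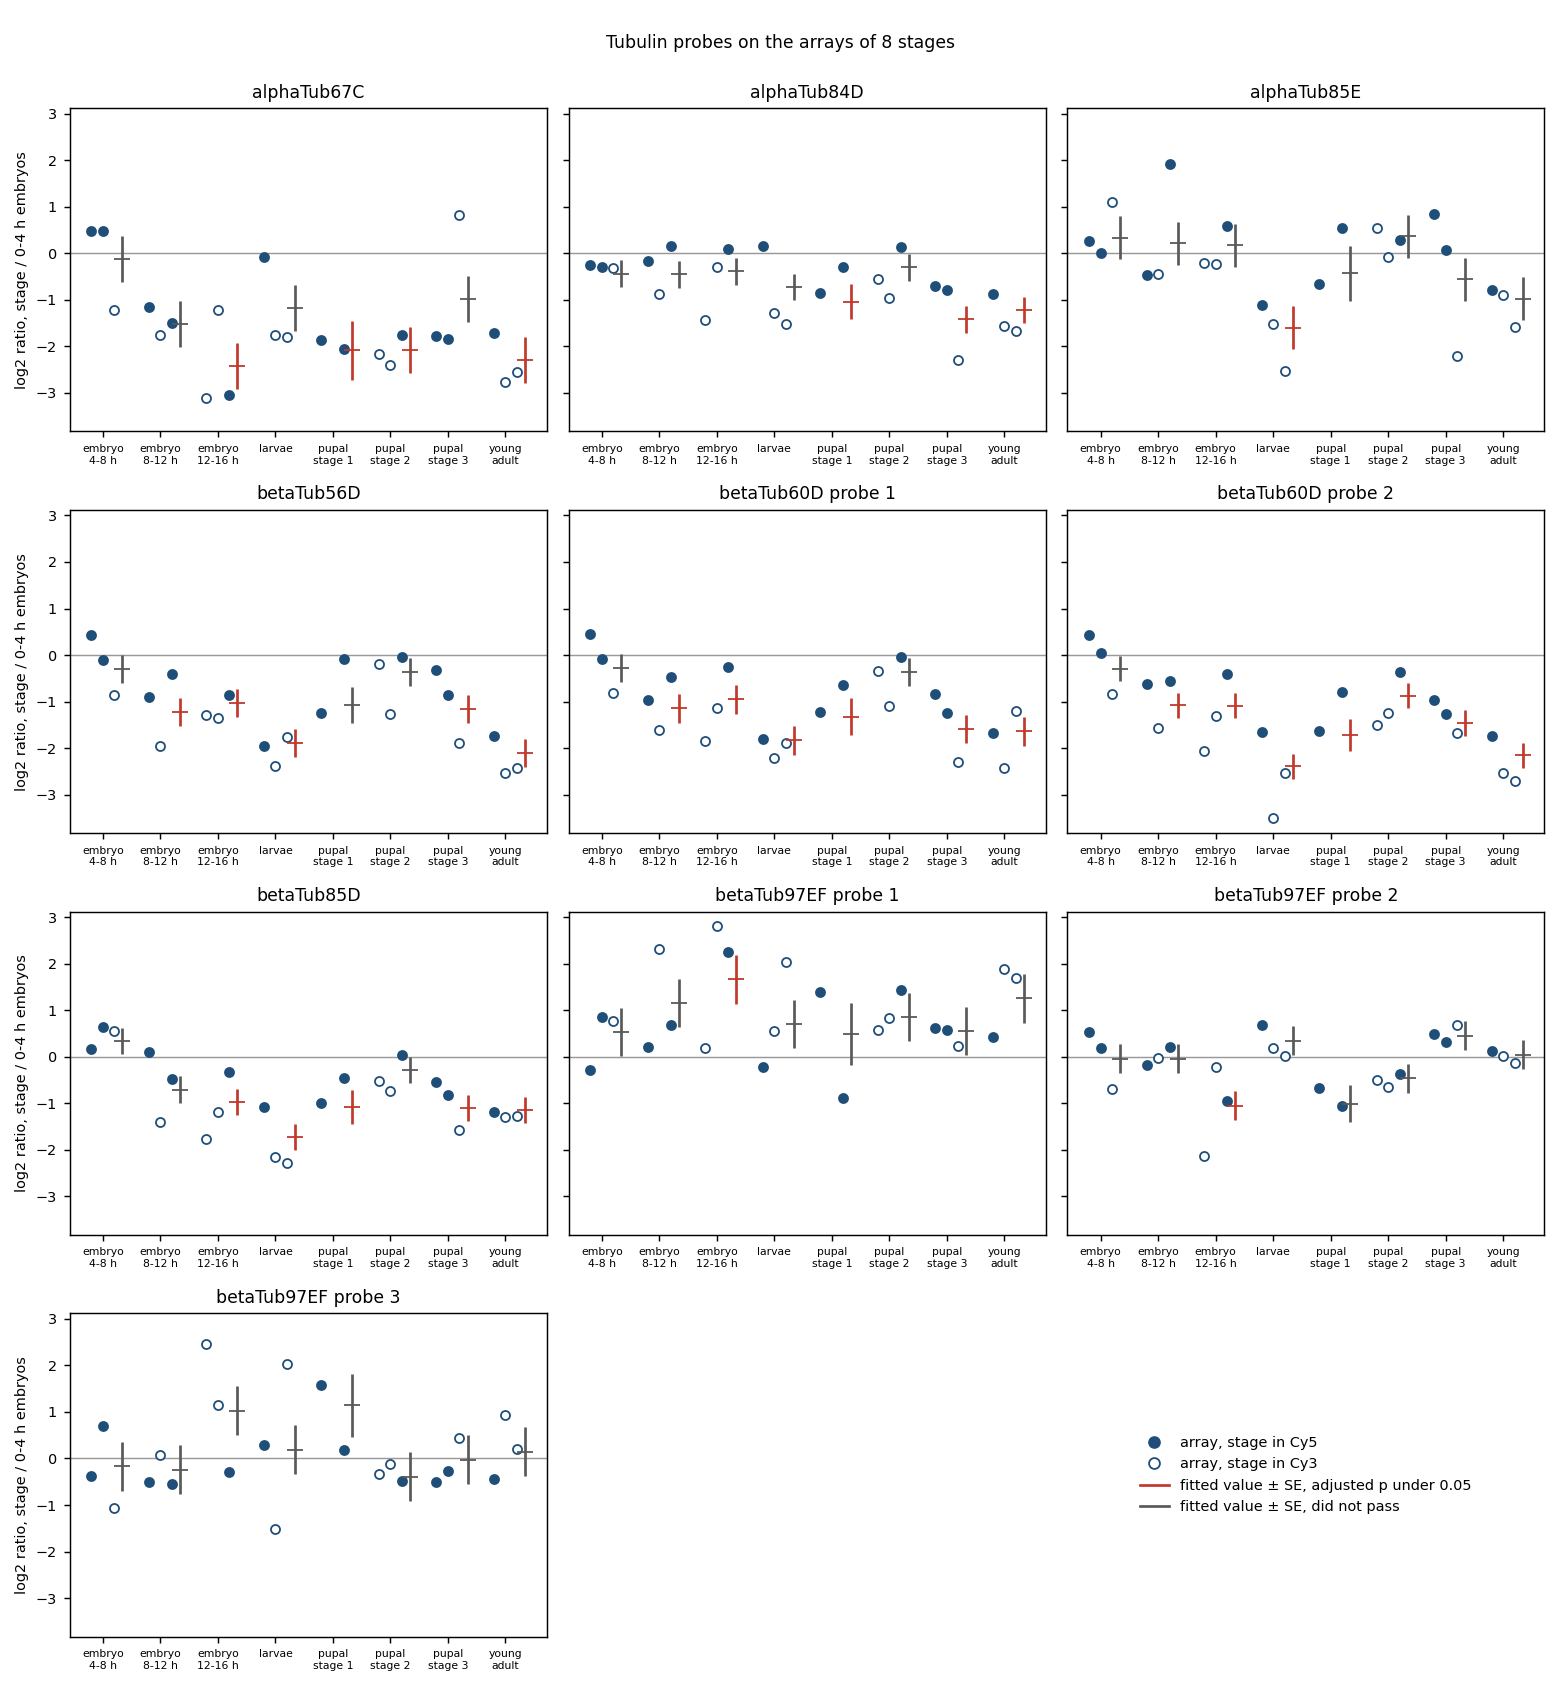
Log2 ratio of each stage over 0-4 h embryos (vertical axis) for the 10 tubulin probes. Each circle is 1 array, filled where the stage was in Cy5 and open where it was in Cy3. The bar beside them is the fitted value with its SE, red where the adjusted p was under 0.05. Most red bars lie below 0, and betaTub97EF probe 1 at 12-16 h has the single one above it.

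Where tubulin probes passed, they were nearly always below the 0-4 h embryos: of 33 calls over 10 probes and 8 stages, 32 were lower and 1 was higher. At 4-8 h, 0 of 10 probes passed in either direction by limma, against 1.49% of all probes higher and 5.94% lower. Of the 10 probes, 0 had an unadjusted p under 0.05 there. At 8-12 h 3 of 10 fell (betaTub56D and both betaTub60D probes) and 0 rose, against 5.71% of all probes lower and 3.83% higher. At 12-16 h 6 fell and 1 rose, against 12.5% lower and 16.8% higher.

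After hatching the direction was the same. In larvae 5 of 10 fell (all probes 14.7% lower, 8.76% higher). At pupal stage 1 5 of 10 fell (16.2% lower, 7.58% higher), at pupal stage 2 only 2 of 10 (16% lower, 9.3% higher) and at pupal stage 3 5 of 10 (19.5% lower, 9.53% higher). In young adults 6 of 10 fell (19.2% lower, 15.2% higher). No probe rose at any stage after hatching, by limma at the adjusted threshold. One probe, betaTub97EF probe 1 in adults, was above 0 with an unadjusted p under 0.05.

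The 10 fitted values had a median of -0.14 for 4-8 h, -0.58 for 8-12 h and -0.96 for 12-16 h embryos, -1.38 for larvae, -1.06, -0.37 and -1.03 for pupal stages 1, 2 and 3, and -1.18 for adults. The median of all probes stayed between 0.00 and 0.08. The tubulin median was thus lowest in larvae, and came back towards the reference at pupal stage 2. When an array of the stage itself was left out, 0 to 1 of the 3 calls at 8-12 h were kept, 3 to 6 of the 7 at 12-16 h, 4 to 5 of the 5 in larvae, 0 to 2 of the 5 at pupal stage 1, 1 of the 2 at pupal stage 2, 4 to 5 of the 5 at pupal stage 3 and 5 to 6 of the 6 in adults.

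A test of whether a probe differs among the 8 stages at all, without the reference, passed for 3 of 10 tubulin probes (betaTub56D, betaTub60D probe 2 and betaTub85D), against 21% of all probes. At an unadjusted p under 0.05 it held for 5 of 10. The 21% is at the adjusted threshold, and the share of all probes at the unadjusted one is not given here, so the 5 cannot be set against it. With the alike arrays of pupal stages 2 and 3 averaged, betaTub60D probe 2 still passed (adjusted p 0.0229), but betaTub56D (0.0648) and betaTub85D (0.0606) did not. Without the dye term none of the 3 passed (adjusted p 0.0537 to 0.0764).

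alphaTub67C, the maternal alpha tubulin that the ovary loads into the egg for the rapid early divisions, fell at 4 stages. At 4-8 h the arrays gave 0.48, 0.49 and -1.21, with no call (-0.12 ± 0.49). At 12-16 h they gave -3.10, -1.22 and -3.05, and the fitted value of -2.41 ± 0.49 amounts to 0.188 times the 0-4 h level (adjusted p 0.000811). All 3 arrays at 12-16 h lay at or below the lowest 4-8 h array.

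alphaTub67C also fell at 3 later stages. The 2 arrays of pupal stage 1 gave -1.86 and -2.06 (-2.09 ± 0.63, adjusted p 0.0206), those of pupal stage 2 gave -2.17, -2.39 and -1.76 (-2.07 ± 0.49, adjusted p 0.00375), and those of adults gave -1.72, -2.76 and -2.54 (-2.30 ± 0.49, adjusted p 0.00105). Every array of these 3 stages was below 0. The adult animals included females, and their alphaTub67C was still lower than in 0-4 h embryos, at 0.203 times. The call at pupal stage 1 was lost without array a (adjusted p 0.147) or array b (0.129).

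At 3 stages alphaTub67C did not pass. At 8-12 h the arrays gave -1.15, -1.75 and -1.51 (-1.51 ± 0.49, adjusted p 0.0595) and in larvae -0.08, -1.75 and -1.81 (-1.17 ± 0.49, adjusted p 0.0934). At pupal stage 3 they gave -1.77, -1.83 and 0.81 (-0.97 ± 0.49, adjusted p 0.152). In both larvae and pupal stage 3, 1 array stood far above the other 2. Without array c of pupal stage 3 that stage passed at -2.17 (adjusted p 0.00287), and without array a of larvae the larval value passed at -1.77 (adjusted p 0.044). Without array c of pupal stage 3 the values at 8-12 h (-1.59, adjusted p 0.00909) and in larvae (-1.09, adjusted p 0.0399) also passed.

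Over the 4 arrays of narrow spread the median of alphaTub67C was 0.20 (range -1.15 to 0.49), against -1.81 (range -3.10 to 0.81) on the other 19 arrays. These 4 arrays belong to 4-8 h, 8-12 h and larvae, and the calls changed with them. With the 4 arrays as a block, alphaTub67C also passed at 8-12 h (-1.93, adjusted p 0.0117) and in larvae (-1.77, adjusted p 0.016). With the 4 left out it passed in larvae (-1.97, adjusted p 0.0319) and no longer at pupal stage 1 (-1.76, adjusted p 0.0549). Ordered by the mean of the arrays, alphaTub67C ran from 4-8 h through pupal stage 3, larvae and 8-12 h to pupal stages 1 and 2, adults and 12-16 h. The only neighbours in that order whose arrays did not overlap were 8-12 h and pupal stage 1.

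alphaTub84D is one of the broadly used alpha tubulins, and its protein is nearly the same as that of alphaTub84B. It moved least of the single-probe genes, with fitted values from -1.42 to -0.30. It fell at pupal stage 3, where the arrays gave -0.71, -0.79 and -2.28 (-1.42 ± 0.29, adjusted p 0.000796), and in adults, where they gave -0.88, -1.57 and -1.67 (-1.22 ± 0.29, adjusted p 0.00239, 0.431 times). All arrays of both stages were below 0. At pupal stage 1 the arrays gave -0.85 and -0.28, and the fitted value of -1.04 ± 0.37 was just under the threshold (adjusted p 0.0466). It was lost in 26 of the 33 alternatives tried, also when array a (-0.75, adjusted p 0.42) or array b (-1.32, adjusted p 0.0741) was left out.

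In the embryo alphaTub84D was near the reference, with arrays of -0.25, -0.29 and -0.31 at 4-8 h, -0.16, -0.87 and 0.16 at 8-12 h and -1.43, -0.28 and 0.09 at 12-16 h. The larval arrays were spread widely, at 0.16, -1.28 and -1.52 (-0.72 ± 0.29, adjusted p 0.0761), and pupal stage 2 gave -0.55, -0.96 and 0.14 (-0.30 ± 0.29). None of these 5 fitted values passed. Every neighbour in the order of its stages overlapped over arrays. Within an array, alphaTub67C minus alphaTub84D was below 0 on all arrays at 8-12 h (-1.67 to -0.88), 12-16 h (-3.13 to -0.94), pupal stage 2 (-1.90 to -1.43) and in adults (-1.19 to -0.84). The difference was also below 0 on all arrays in larvae and at pupal stage 1. At 4-8 h and pupal stage 3 it lay on both sides of 0. These differences do not change with the centring of an array.

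alphaTub85E is known from the testis, from developing muscle and from support cells of sense organs. It fell only in larvae, where the arrays gave -1.11, -1.53 and -2.52 (-1.60 ± 0.46, adjusted p 0.0164, 0.33 times). That call was lost without larval array a (-1.67, adjusted p 0.0556) and without larval array c (-1.32, adjusted p 0.136). At 4-8 h all arrays were above 0, at 0.26, 0.02 and 1.09 (0.34 ± 0.46), and none overlapped the larval arrays.

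Elsewhere alphaTub85E stayed around the reference with wide spread. The arrays gave -0.47, -0.44 and 1.92 at 8-12 h, -0.21, -0.23 and 0.59 at 12-16 h, -0.65 and 0.54 at pupal stage 1, and 0.54, -0.08 and 0.28 at pupal stage 2. At pupal stage 3 they gave 0.85, 0.07 and -2.21, so that array c stood far below the other 2, as it did for alphaTub84D. Adults gave -0.78, -0.90 and -1.59, all below 0, but did not pass (-0.97 ± 0.46, adjusted p 0.117). Uncentred, the fitted values at 12-16 h and pupal stage 2 turned from 0.17 and 0.37 to -1.50 and -1.39 and passed as lower.

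betaTub56D encodes the main, broadly used beta tubulin, which is also supplied by the mother. It fell at 5 stages and its F-test among stages passed (adjusted p 0.0285, but 0.0648 with the alike pupal arrays averaged). Larvae gave -1.95, -2.38 and -1.76 (-1.90 ± 0.30, adjusted p 0.000127) and adults gave -1.73, -2.54 and -2.44 (-2.10 ± 0.30, adjusted p 2.04e-05). These are 0.269 and 0.233 times the level of 0-4 h embryos. The larval and adult arrays lay below every array of the other 6 stages, except array b of 8-12 h and array c of pupal stage 3, which were within their range.

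In embryos the values of betaTub56D were closer to the reference. At 4-8 h its arrays gave 0.44, -0.10 and -0.85 (-0.30 ± 0.30, no call). At 8-12 h they gave -0.90, -1.96 and -0.41 (-1.22 ± 0.30, adjusted p 0.013) and at 12-16 h -1.29, -1.35 and -0.87 (-1.04 ± 0.30, adjusted p 0.0136), about 0.428 and 0.487 times the reference. The 8-12 h call was lost without its array a (-1.18, adjusted p 0.078) or b (-1.02, adjusted p 0.183), and the 12-16 h call without array c (-0.89, adjusted p 0.111).

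Pupal values of betaTub56D varied more from array to array. Pupal stage 1 gave -1.25 and -0.09 (-1.08 ± 0.39, adjusted p 0.0502), and passed without array b (-1.66, adjusted p 0.0272). Pupal stage 2 gave -0.20, -1.26 and -0.05 (-0.37 ± 0.30, no call). Pupal stage 3 gave -0.33, -0.86 and -1.88 (-1.16 ± 0.30, adjusted p 0.00639), and its call was lost without array c (-0.96, adjusted p 0.0845). All pupal arrays were below 0.

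betaTub60D makes beta3 tubulin, known from the embryonic mesoderm and the developing muscles, and from other cells as they differentiate. Its 2 probes gave much the same course, and the second fell at 7 of the 8 stages. Probe 2 in larvae gave -1.64, -3.51 and -2.54 (-2.39 ± 0.27, adjusted p 3.57e-06, 0.19 times) and in adults -1.74, -2.53 and -2.71 (-2.16 ± 0.27, adjusted p 4.55e-06). Probe 1 in larvae gave -1.80, -2.21 and -1.88 (-1.83 ± 0.31, adjusted p 0.000188) and in adults -1.68, -2.42 and -1.21 (-1.64 ± 0.31, adjusted p 0.000288). All larval and adult arrays of both probes were below 0, the highest of them at -1.21.

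At 4-8 h neither probe passed, with arrays of 0.46, -0.08 and -0.82 for probe 1 and 0.43, 0.04 and -0.83 for probe 2. At 12-16 h, when muscles form, probe 1 gave -1.85, -1.13 and -0.25 (-0.95 ± 0.31, adjusted p 0.0235) and probe 2 gave -2.06, -1.30 and -0.40 (-1.09 ± 0.27, adjusted p 0.00466). Both probes were thus below the reference and not above it, and without array a of that stage both calls were lost (-0.69, adjusted p 0.173, and -0.85, adjusted p 0.0538). At 8-12 h probe 1 gave -0.98, -1.61 and -0.46 (-1.14 ± 0.31, adjusted p 0.0204) and probe 2 gave -0.62, -1.56 and -0.55 (-1.08 ± 0.27, adjusted p 0.0147). Both of those calls were lost when array a, b or c of that stage was left out.

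The pupal values followed the same line. At pupal stage 1, probe 1 gave -1.22 and -0.64 (-1.32 ± 0.39, adjusted p 0.0181) and probe 2 -1.63 and -0.79 (-1.72 ± 0.35, adjusted p 0.00125), and both calls were lost without array a (adjusted p 0.276 and 0.0899). At pupal stage 2, probe 1 gave -0.35, -1.09 and -0.05 with no call (-0.37 ± 0.31), while probe 2 gave -1.51, -1.24 and -0.36 (-0.87 ± 0.27, adjusted p 0.0234), a call lost when any 1 array of that stage was left out. At pupal stage 3 probe 1 gave -0.83, -1.24 and -2.29 (-1.58 ± 0.31, adjusted p 0.000496) and probe 2 gave -0.96, -1.26 and -1.66 (-1.46 ± 0.27, adjusted p 0.000357). For both probes all pupal arrays were below 0. Only probe 2 passed the test among stages (adjusted p 0.00595, against 0.0523 for probe 1).

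betaTub85D makes beta2 tubulin, the testis isotype of the meiotic spindle and the sperm tail. It fell at 5 stages, adults among them, and rose at none (F-test adjusted p 0.0186, but 0.0606 with the alike pupal arrays averaged). Adults gave -1.19, -1.30 and -1.28 (-1.14 ± 0.28, adjusted p 0.00333, 0.454 times), the tightest arrays of this probe. Without adult array a the adult value was -0.88 (adjusted p 0.0814). Larvae gave -1.09, -2.14 and -2.28 (-1.72 ± 0.28, adjusted p 0.00016).

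At 4-8 h all arrays of betaTub85D were above 0, at 0.17, 0.65 and 0.56 (0.34 ± 0.28, no call), and they overlapped with none of the arrays of the next stage in its order. At 8-12 h the arrays gave 0.10, -1.39 and -0.47 (-0.71 ± 0.28, adjusted p 0.136), and at 12-16 h -1.78, -1.18 and -0.33 (-0.98 ± 0.28, adjusted p 0.0122). The 12-16 h call was lost without array a (-0.75, adjusted p 0.103). Pupal stage 1 gave -0.995 and -0.46 (-1.08 ± 0.36, adjusted p 0.0338), lost without array a (-0.81, adjusted p 0.361) or b (-1.35, adjusted p 0.0614). Pupal stage 2 lay near the reference at -0.53, -0.73 and 0.04 (-0.29 ± 0.28), and pupal stage 3 gave -0.54, -0.83 and -1.57 (-1.10 ± 0.28, adjusted p 0.00552).

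betaTub97EF, the beta tubulin that is found in fewer tissues and at lower levels, had 3 probes that disagreed. At 12-16 h probe 1 rose, with arrays of 0.18, 2.80 and 2.24 (1.66 ± 0.52, adjusted p 0.0201, 3.16 times), although uncentred it was at -0.0163. At the same stage probe 2 fell, with arrays of -2.14, -0.23 and -0.94 (-1.05 ± 0.31, adjusted p 0.0137), and probe 3 gave 2.47, 1.14 and -0.28 with no call (1.03 ± 0.52). The rise was lost without array b (1.21, adjusted p 0.154) or c (1.14, adjusted p 0.229), and the fall without array a (-0.58, adjusted p 0.209) or c (-1.03, adjusted p 0.0724).

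The duplicate spots of the betaTub97EF probes were also far apart. Their median difference was 0.413, 0.691 and 0.530 for probes 1, 2 and 3, against 0.106 to 0.247 for the other 7 tubulin probes. They differed by more than 1 on 8, 8 and 7 of 23 arrays, against 0 to 2 for the others. With only close duplicate spots kept, probe 2 at 12-16 h was no longer called (-0.58, adjusted p 0.11).

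At the other 7 stages no betaTub97EF probe passed. Probe 1 was above 0 on 20 of 23 arrays, with fitted values from 0.49 to 1.25 outside 12-16 h. In adults it gave 0.43, 1.89 and 1.69 (1.25 ± 0.52, adjusted p 0.0693). Probe 2 was split evenly, with 11 arrays above 0 and 12 below, as was probe 3. The range of fitted values over the 8 stages was 1.17 for probe 1, which 86.7% of all probes exceeded. betaTub97EF is thus the beta tubulin for which these arrays give no single course.

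Across the 8 stages the fitted values of betaTub56D correlated with those of betaTub60D probe 1 at r = 0.91, with probe 2 at 0.91 and with betaTub85D at 0.84. These are descriptions over 8 points that share arrays and reference, and such values were not particular to beta tubulins: alphaTub85E had r of 0.93 with betaTub60D probe 2, 0.85 with betaTub56D and 0.82 with betaTub85D. With the betaTub97EF probes betaTub56D had r of -0.27 and -0.35 for probes 1 and 2.

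Array by array these beta tubulins were also close. The difference between betaTub56D and betaTub60D probe 1 on the same array had a median size of 0.153, and it was within 0.5 on 18 of 23 arrays. For betaTub60D probe 2 it was 0.308 (17 of 23 arrays) and for betaTub85D 0.484 (12 of 23). A distance like the last was not particular to beta tubulins. alphaTub84D differed from betaTub85D by a median of 0.391 (14 of 23 arrays) and from betaTub60D probe 1 by 0.453 (13 of 23). From betaTub56D it differed by 0.539 (11 of 23) and from betaTub60D probe 2 by 0.680 (6 of 23). The 2 probes of betaTub60D differed from each other by a median of 0.151 (18 of 23 arrays). The distance between betaTub56D and betaTub60D probe 1 was therefore as small as that between 2 probes of 1 gene, and of the size of the duplicate-spot difference of 1 probe (0.158 for betaTub56D). These genes are similar in sequence, probe sequences were not used here, and whether RNA of one isotype bound to the probe of another was not tested.

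**Figure D2:**
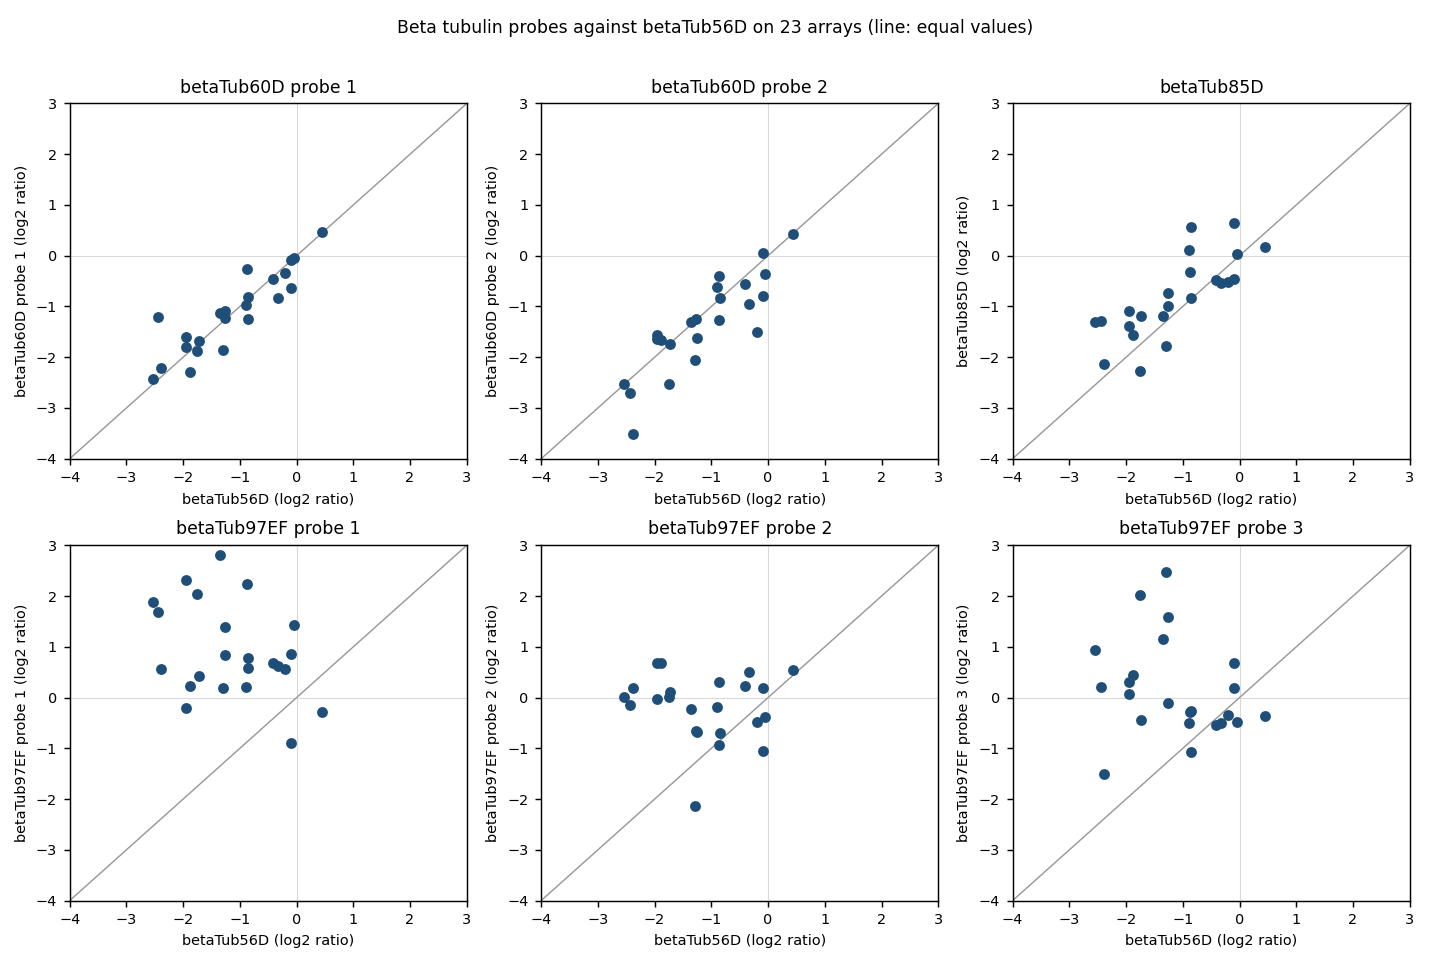
Log2 ratio over 0-4 h embryos of 6 beta tubulin probes (vertical axes) against betaTub56D (horizontal axis), 1 point per array, 23 arrays, with a line at equal values. The betaTub60D probes and betaTub85D follow the line, with betaTub60D probe 1 within 0.5 of it on 18 arrays, while the betaTub97EF probes scatter away from it.

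betaTub60D probe 2 minus betaTub85D was below 0 on all arrays at 7 of the 8 stages, and above 0 on 1 array at 4-8 h. In adults betaTub56D minus betaTub85D was below 0 on all 3 arrays (-1.24 to -0.54), as was betaTub56D minus betaTub60D probe 1 (-1.23 to -0.05). At pupal stage 3 betaTub56D minus betaTub60D probe 1 was above 0 on all 3 arrays (0.38 to 0.50). At the other 6 stages that difference lay between -0.61 and 0.56. No test was made of these differences.

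A dye effect, the tendency of a probe to read higher in one dye whatever the stage, passed for 5 of the tubulin probes: alphaTub84D (0.47, adjusted p 0.01), betaTub56D (0.40, adjusted p 0.0306), betaTub60D probe 1 (0.39, adjusted p 0.0366) and probe 2 (0.51, adjusted p 0.00463) and betaTub85D (0.36, adjusted p 0.0373). The fit takes it out, and each stage but pupal stage 1 held both dyes. For these probes arrays with the stage in Cy5 read higher. Pupal stage 1 had both arrays in Cy5, so its dye correction came from the other stages. The fitted values of these probes there lie below the plain means of its arrays. Without the dye term, pupal stage 1 calls were lost for alphaTub84D (adjusted p 0.471), betaTub85D (0.279) and betaTub60D probes 1 (0.188) and 2 (0.0988). At 8-12 h those of betaTub56D (0.107) and betaTub60D probes 1 (0.139) and 2 (0.235) were lost. Also lost were betaTub60D probe 2 at pupal stage 2 (0.0661) and betaTub56D at pupal stage 3 (0.0577).

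Markers of muscle and testis rose at stages at which betaTub60D and betaTub85D had fitted values below 0. alphaTub85E, which is also known from both tissues, was at 0.17 at 12-16 h and 0.37 at pupal stage 2, with no call, and below 0 at both stages when uncentred. Of 41 probes for muscle genes, 31 rose at 12-16 h and 28 in larvae (all probes 16.8% and 8.76%). At pupal stages 2 and 3 and in adults 38, 37 and 38 rose (all probes 9.3%, 9.53% and 15.2%). Examples at 12-16 h are Prm, a protein of the thick filament core (6.10 ± 0.40, adjusted p 4.22e-09), Mp20, a small muscle protein (6.07 ± 0.43, adjusted p 6.19e-09), and up, which encodes troponin T (5.73 ± 0.64, adjusted p 1.11e-06). On the same arrays the value of betaTub60D minus the median of the muscle probes was -4.52 to -3.43 for probe 1 and -4.69 to -3.57 for probe 2. In adults it was -6.71 to -5.94 and -7.64 to -5.995.

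For the testis the picture was alike. Of 29 probes for testis and sperm genes, 9 rose at pupal stage 1, 15 at pupal stage 2, 10 at pupal stage 3 and 16 in adults. Of all probes, 7.58%, 9.3%, 9.53% and 15.2% rose at these stages. In adults Mst84Da, a sperm tail protein, was at 5.13 ± 0.32 (adjusted p 1.63e-09), dj, a protein of the sperm tail and mitochondria, at 5.04 ± 0.48 (adjusted p 1.8e-07), and Mst77F, a protein of sperm chromatin, at 4.86 ± 0.60 (adjusted p 3.46e-06). The value of betaTub85D minus the median of these probes was -3.82 to -3.07 on the adult arrays and -2.42 to -1.52 at pupal stage 2. In adults 0 of the 29 testis probes had a fitted value below that of betaTub85D. For alphaTub85E minus the testis median the adult arrays gave -4.14 to -2.67.

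alphaTub67C moved in the direction of the maternal genes, with falls at 4 stages, but its test among stages did not pass (adjusted p 0.144). The direction was not particular to it: betaTub56D and betaTub85D fell at 5 stages each and the betaTub60D probes at 6 and 7. Of 27 probes for genes of the egg and early embryo, 18 fell at 4-8 h, 18 at 8-12 h and 19 at 12-16 h (all probes 5.94%, 5.71% and 12.5%). In larvae 21 fell and at pupal stages 1 to 3 20, 22 and 22 (all probes 14.7%, 16.2%, 16% and 19.5%). In adults 23 fell and 1 rose (all probes 19.2% and 15.2%). dhd, a thioredoxin of the egg (-6.20 ± 0.49, adjusted p 1.7e-08), and osk, the organiser of the germ plasm (-5.98 ± 0.78, adjusted p 6.63e-06), are examples at 12-16 h. alphaTub67C was less reduced than most of them: at 4-8 h 25 of the 27 maternal probes had lower fitted values, and at 12-16 h 15 of 27 did. On the 4-8 h arrays it lay 1.51 to 1.63 above their median.

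**Figure D3:**
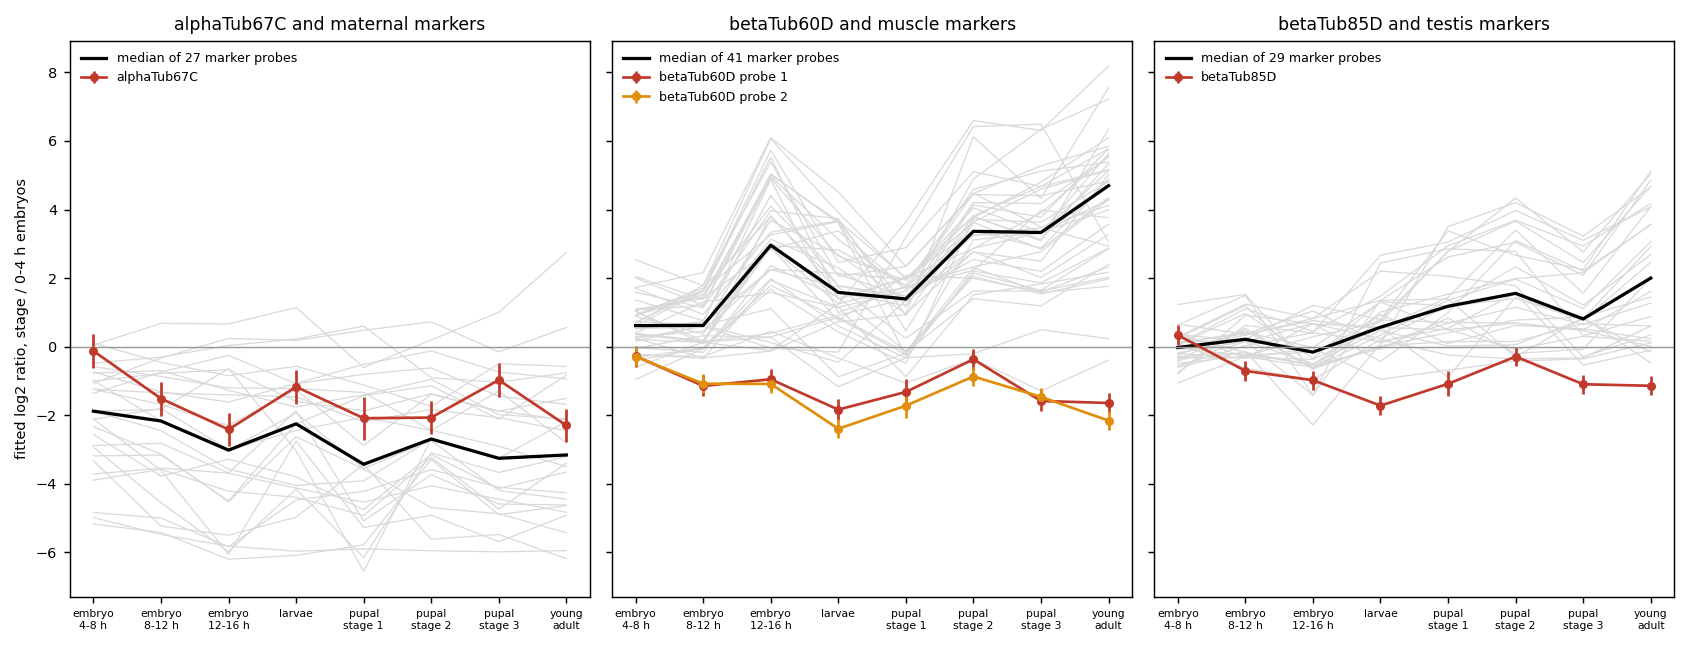
Fitted log2 ratio over 0-4 h embryos (vertical axis) by stage, with SE bars for the tubulins, for alphaTub67C with 27 probes of maternal genes, the 2 betaTub60D probes with 41 probes of muscle genes and betaTub85D with 29 probes of testis and sperm genes. Grey lines are marker probes and the black line is their median. In adults the muscle median is at 4.70 and the testis median at 2.00, while the tubulins are below 0.

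Genes that work with microtubules differed in direction from list to list. All 7 probes of the gamma tubulin complex, the ring that starts new microtubules, fell in embryos of 8-12 h and 12-16 h, in larvae, at pupal stages 2 and 3 and in adults, with 3 of 7 at 4-8 h and 5 of 7 at pupal stage 1. Over the 8 stages, 5.71% to 19.5% of all probes fell. The median of the gamma tubulin complex was -0.92 at 4-8 h and -3.07 at 12-16 h, well below the tubulin median of -0.96 at 12-16 h. Grip71, an adaptor of the ring, was at -5.05 ± 0.36 at 12-16 h (adjusted p 6.25e-09), and gammaTub37C, the maternal gamma tubulin, at -3.13 ± 0.43 (adjusted p 1.14e-05).

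The genes that fold tubulin were also lower where they passed, with few exceptions. Their median was -0.89 at 4-8 h and -1.23 at pupal stage 2, against -0.14 and -0.37 for the tubulins. Of 19 probes for tubulin cofactors, prefoldin and the chaperonin CCT, 5 fell in embryos of 4-8 h, 4 in those of 8-12 h and 6 in those of 12-16 h. In larvae 11 fell, at pupal stages 1, 2 and 3 13, 12 and 16, and in adults 17. Only 1 rose at 12-16 h and 1 in adults. Of all probes, 5.71% (8-12 h) to 19.5% (pupal stage 3) fell over the 8 stages. Tbcb, a cofactor that binds alpha tubulin, was at -2.61 ± 0.36 at 4-8 h (adjusted p 0.000168), when no tubulin probe had passed. CCT2, a chaperonin subunit, was at -2.03 ± 0.30 in adults (adjusted p 2.45e-05).

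Among motors and binding proteins, more probes fell than rose at the stages given here. Of 36 probes for kinesins and cytoplasmic dynein, 16 fell and 2 rose at 12-16 h, and 20 fell and 4 rose in adults. Of all probes, 12.5% fell and 16.8% rose at 12-16 h, and 19.2% fell and 15.2% rose in adults. The mitotic kinesins Klp67A (-4.96 ± 0.40, adjusted p 1.95e-08) and Klp61F (-3.55 ± 0.45, adjusted p 5.43e-06) are examples at 12-16 h. Of 23 probes for microtubule-associated proteins, 12 fell and 5 rose at 12-16 h. mars, a spindle protein, fell (-4.25 ± 0.59, adjusted p 1.41e-05), while shot, which links microtubules to actin (3.57 ± 0.34, adjusted p 1.43e-07), and ringer, a TPPP protein of differentiated cells (4.05 ± 0.50, adjusted p 3.94e-06), rose.

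Enzymes that modify or cut microtubules and the parts of cilia had list medians near 0. Of 21 probes for modifying and severing enzymes, 6 rose and 4 fell in adults, among them Tat, an alpha tubulin acetyltransferase (2.43 ± 0.37, adjusted p 4.06e-05), and TTLL1A, of the tubulin ligase family (2.44 ± 0.48, adjusted p 0.000514). Of 37 probes for axonemal dyneins and cilium transport, 7 rose and 2 fell in adults, and 7 rose and 2 fell at 12-16 h. Of all probes, 15.2% rose and 19.2% fell in adults and 16.8% rose and 12.5% fell at 12-16 h, so that in the cilium list the share that rose was near the background. The medians of both lists stayed between -0.41 and 0.38 at all 8 stages.

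**Figure D4:**
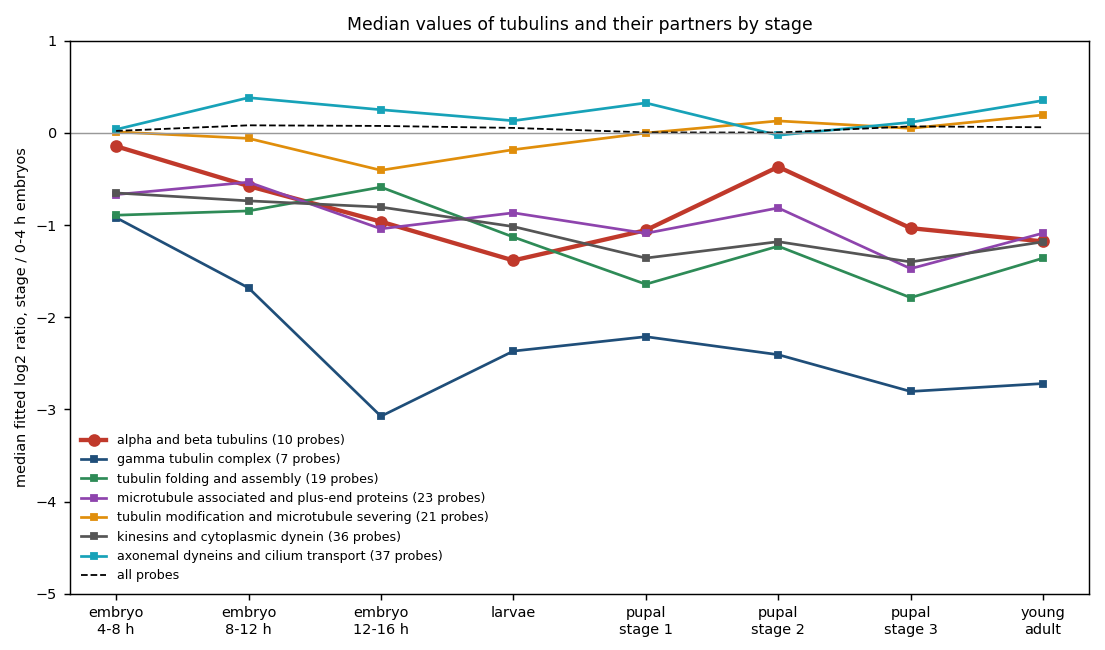
Median fitted log2 ratio over 0-4 h embryos (vertical axis) by stage for the 10 tubulin probes, 6 lists of genes that work with microtubules, and all probes. The gamma tubulin complex is lowest at every stage (-3.07 at 12-16 h), and the tubulins come nearest to 0 at 4-8 h (-0.14) and pupal stage 2 (-0.37).

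Between successive stages 2 tubulin calls were made, both from 12-16 h embryos to larvae, where 10.2% of all probes passed in either direction. betaTub60D probe 2 was lower in larvae than at 12-16 h (-1.31 ± 0.38, adjusted p 0.0343), although the arrays of the stages overlapped. betaTub97EF probe 2 was higher in larvae (1.40 ± 0.43, adjusted p 0.0452), with no overlap. The first was lost in 9 of the alternatives tried. Among these were the fit without a dye term (adjusted p 0.176), close duplicate spots only (0.051), the alike pupal arrays averaged (0.0599) and the set of 4 narrow arrays left out (0.0881). It was also lost without array b of 12-16 h (adjusted p 0.084), array c of 12-16 h (0.0791) or larval array b (0.13). The second was lost in 27 of the alternatives tried, also with any 1 of the 3 larval arrays left out (adjusted p 0.0798 to 0.122).

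At the same step alphaTub85E had lower larval arrays with no overlap, but did not pass (-1.77 ± 0.65, adjusted p 0.0862). At the other 6 steps limma called 0 of 10 tubulin probes. The background was 0.0126% of all probes for 8-12 h minus 4-8 h, 5.11% for 12-16 h minus 8-12 h, 0.995% for pupal stage 1 minus larvae, 0.638% for pupal stage 2 minus 1, 0.34% for pupal stage 3 minus 2 and 1.18% for adults minus pupal stage 3. At an unadjusted p under 0.05 these steps held 2, 1, 1, 0, 2 and 1 tubulin probes in the same order. The percentages above are at the adjusted threshold and are no background for these counts. The share of all probes at the unadjusted threshold is not given here. The return of the tubulin median towards the reference at pupal stage 2 was thus not called for any single probe against the stage before or after it.

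The genes most like each tubulin over the 8 fitted values were taken from 3728 probes that passed the test among stages, as a description chosen for its high r. alphaTub67C was most like Psf1 (r = 0.97) and PolA2 (r = 0.96), which act in DNA replication, and CG7376 (r = 0.95). alphaTub84D was most like CG30122, Prosap and MED31 (r = 0.94, 0.93 and 0.93), and alphaTub85E like Pvf3, lolal and Mvb12 (r = 0.94, 0.89 and 0.88). For betaTub56D (r = 0.89), both betaTub60D probes (0.88 and 0.92) and betaTub85D (0.95) the first was E(spl)m4-BFM, a target gene of Notch signalling. That gene was at 0.93 at 4-8 h, -2.17 in larvae, -0.12 at pupal stage 2 and -2.06 in adults. The 3 betaTub97EF probes had different nearest genes, with NKAIN, lds and CG42749 in first place (r = 0.96, 0.92 and 0.95).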

How the data were processed

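RNA of 8 stages was hybridized on 24 two-colour arrays, 3 per stage, against RNA of 0-4 h embryos. Cy5 and Cy3 marked the RNAs (20 µg total RNA), with a dye swap in each stage and 2 spots per probe, per the labels. How background was treated is not given in the sources used. What the authors deposited for 23 arrays is a Cy5 to Cy3 log2 ratio at each of 47616 spots, not centred. The deposited column of array c of pupal stage 1 held a log2 signal of 1 channel and was not compared.

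Before the fit, 633 values at the scale's end points were treated as missing and every array had its median subtracted. Signs were turned on arrays whose stage RNA carried Cy3, and duplicate spots (1984 positions apart) were averaged, giving 23808 probes. As deposited, 132 of 132 pairs of arrays with opposite dyes correlated below 0, and after this turn none did, the lowest at 0.0512 across probes. Gene symbols came from the platform annotation, and no gene was named from a probe with several symbols. All 7 measured tubulin genes matched the RefSeq gene table by gene ID.

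Each probe was fitted with limma 3.58.1 (lmFit, eBayes) in R 4.3.3 over all 23 arrays, with 1 coefficient per stage and a dye term (residual df 14, prior df 5.71). The dye term passed for 3632 probes. Stages were tested against 0, successive stages as differences, and all 8 by a moderated F-test, two-sided, at a Benjamini-Hochberg adjusted p under 0.05, counted over all 23808 probes. The fit was tested on simulated data, but the outcome is not given here and no result above rests on it. The number of arrays limits the precision, and no channel intensities were used, so signal over background is unknown.

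The tubulins, the partner lists and the marker lists were chosen with earlier results of these data known. Named genes are all tubulin probes, at most 3 of the largest passing probes of each list per comparison, and the 3 genes most correlated with each tubulin probe. Alternatives were no centring, centring on named probes, scaling to 1 spread, no dye term, close duplicate spots, a replicate block, averaging the alike a and b arrays of pupal stages 2 and 3, a set of 4 arrays as a block or left out, arrays of the stage alone, and leaving out each array. Replicate letters did not pair arrays: deviations from stage means correlated at a median of 0.00370 over 77 pairs with the same letter and -0.00151 over 154 pairs with different letters.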

Additional observations from a re-analysis of the deposited data

Results flagged for a closer look

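Each result here concerns effects that differ between stages. By the test of the difference itself, betaTub60D probe 2 differed between larvae and 12-16 h embryos by -1.31 and betaTub97EF probe 2 by 1.40 on the log2 scale (larvae minus 12-16 h). In the following pairs all arrays of one stage were above 0 and all arrays of the other below 0, and the difference was not tested. Between larvae and 4-8 h embryos, means of arrays differed by 2.18 for alphaTub85E and by 2.30 for betaTub85D, higher at 4-8 h. betaTub97EF probe 2 was higher at pupal stage 3 than at 12-16 h by 1.60. betaTub97EF probe 3 was higher at pupal stage 1 than at pupal stage 2 by 1.20, with 2 arrays in the first.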

How the results depend on the processing

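Among the stages, 3 tubulin probes passed the F-test, against 7 with uncentred values, 1 when the a and b arrays of both pupal stages 2 and 3 were averaged, 0 without the dye term, 0 with the set of 4 narrow arrays left out, and 1 to 5 with 1 array left out. Against the reference, 33 calls (32 lower) became 10 when each stage was fitted on its own arrays, 48 (all lower) uncentred, 30 (27 lower) centred on named probes, 28 with the replicate block, 24 to 39 in the other settings and 28 to 36 with 1 array left out. The 2 calls between successive stages became 1 with scaled arrays, with the replicate block or with the set of 4 as a block, and 0 uncentred, without the dye term, with close duplicate spots, with pupal arrays averaged, without the set of 4 or on the stages' own arrays, and 0 to 2 with 1 array left out. Uncentred values reversed alphaTub85E at 12-16 h (-1.50) and pupal stage 2 (-1.39) and betaTub97EF probe 1 at 12-16 h (-0.0163). Uncentred, the share of all calls that were higher was 83.3% at 4-8 h and 1.59% to 22.6% at the other stages, against 20.1% at 4-8 h and 31.9% to 57.3% at the others when centred. The cause of these changes was not tested.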

Other observations

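Array c of pupal stage 1 held a signal of 1 channel, with a median of 8.72 on its log2 scale. alphaTub85E stood at 12.8, above 99% of probes, and betaTub85D at 11.3, above 97.6%. Their duplicate spots were far apart, at 11.6 and 14.1 for alphaTub85E and 9.18 and 13.5 for betaTub85D. alphaTub67C stood at 9.09, alphaTub84D at 8.90 and betaTub56D at 8.74, nearer the median. The labels do not say which RNA this signal stands for.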
